A study of Homo sapiens with 4 samples.

Results

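The genes described here are 36 genes of macroautophagy and its transcriptional control. They comprise the core autophagy machinery from the starting kinase complex to the ATG8 proteins, the cargo receptors NBR1, OPTN and SQSTM1, and the transcription factors TFEB, TFE3 and MITF. They were picked by gene symbol, with earlier results of these data known. All 36 were found among the 60666 rows of the table, none of the symbols was repeated, and 35 were among the 15051 rows whose mean level reached 1 TPM, the minimum set for testing. The remaining gene, MAP1LC3A, was listed at 0 TPM in all 4 libraries and was not tested. RNA came from HGC27, an established human gastric cancer line, kept in glucose-free DMEM with serum (no glucose, n = 2) or for 24 h in that medium plus lactate at 25 mM (lactate, n = 2). All 4 libraries therefore come from cells without glucose, and the comparison asks how RNA levels differ when lactate is present as well. The line is a single source of cells, and nothing in the labels tells whether replicates were grown as separate cultures. The p-values therefore reflect only the spread among these samples, which may be technical.

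Macroautophagy encloses cytoplasm in a membrane that closes into an autophagosome and fuses with the lysosome. A kinase complex built on ULK1 or ULK2 starts the process, a lipid kinase complex with beclin 1 makes the lipid signal that WIPI proteins read, and ATG2 and ATG9 proteins supply lipid to the growing membrane, the phagophore. Enzymes related to those of the ubiquitin system then attach ATG8 proteins to this membrane, where they hold cargo receptors. TFEB and its relatives, the MiT/TFE factors, bind an E-box element shared by many lysosomal and autophagy genes. When nutrients are plentiful, the kinase TORC1 keeps TFEB in the cytoplasm and restrains ULK1. These are controls on protein activity and on flux, and RNA levels measure neither.

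Levels are given in TPM, a share of all transcripts corrected for gene length, so that levels of different genes can be compared. Depth is unknown from such values. Sums over the table were between 995439 and 996089 per library, and between 23272 and 25764 rows were above 0. A fold change is the difference, lactate minus no glucose, of log2(TPM + 1). This scale shrinks the change of genes at low levels, and the errors given with it are standard errors from limma (SE). A gene is said to have risen or fallen where its limma p-value, adjusted over all 15051 rows, was under 0.05. Of all tested rows, 6.59% passed. Among them 706 rose and 286 fell, so that 71.2% of calls were upward. After median-ratio scaling of the libraries the calls were 389 upward and 382 downward, 50.5% upward, and the median log2 fold change of all rows moved from 0.08 to -0.0041.

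The labelled cell type was checked against marker genes. Of 7 gastric mucosal markers, 6 were listed at 0 in every library, among them TFF1 and MUC5AC, and only MUC6 was above 0. Of 5 epithelial markers, EPCAM, KRT18 and KRT19 stayed under the filter, and the summed level of the list was 3.77 to 4.51 TPM without and 8.77 to 10.6 TPM with lactate, with KRT8 rising (log2 fold change 1.24 ± 0.16, limma adjusted p = 0.0328). Of 3 mesenchymal markers, VIM lay between 2747 and 2984 TPM in every library and CDH2 was under 0.1 TPM, and the list summed to 2939 and 3007 TPM without and 2972 and 2778 TPM with lactate. All 4 fibroblast markers were detected, and their sum was 487 to 491 TPM without and 550 to 566 TPM with lactate. Of these, COL1A2 rose (1.09 ± 0.13, adjusted p = 0.0308), COL1A1 and PDGFRB were higher in both lactate libraries without passing, and DCN was lower in both (-0.28 ± 0.10, adjusted p = 0.1453). Leukocyte and endothelial lists were close to 0, with sums of 2.43 to 4.64 TPM and at most 0.23 TPM. The epithelial, fibroblast and leukocyte sums were each higher in both lactate libraries, and their part in the results for autophagy genes was not tested.

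Of the 35 tested autophagy genes, 4 rose with lactate. None fell, and the other 31 did not pass. The 4 were GABARAPL1, an ATG8 protein, WIPI1, a reader of the phagophore lipid signal, and the cargo receptors OPTN and NBR1. They make up 11.4% of tested members, where 4.69% of all tested rows rose and 1.90% fell. At an unadjusted p under 0.05 there were 14 members, 40% of those tested, against 28.2% of all rows. The median log2 fold change of the members was 0.22, and that of all tested rows was 0.08. Of the 35, 25 had a log2 fold change above 0 (71.4%, against 59.2% of all rows), and 3 of these 25, UVRAG, ATG10 and MITF, turned below 0 after median-ratio scaling. The median absolute log2 difference between libraries of a condition was 0.10 without and 0.16 with lactate for the members, and 0.14 and 0.19 for all rows. In bulk RNA, a change in the number of cells that express a gene and a change in RNA per cell cannot be told apart.

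All 4 calls were lost whichever of the 4 libraries was left out. The adjusted p was then between 0.110 and 0.2795, while the log2 fold changes kept their direction. Leaving out a library leaves a condition with a lone sample, which is assumed to vary as the other condition does, and at most 10 rows of the whole table were then called. The 4 calls were also lost without a filter on low values, where no row of the table passed (adjusted p between 0.108 and 0.121 for the 4). When only protein-coding genes were tested, 7 members rose, with ULK1, SQSTM1 and TFEB added.

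**Figure D1:**
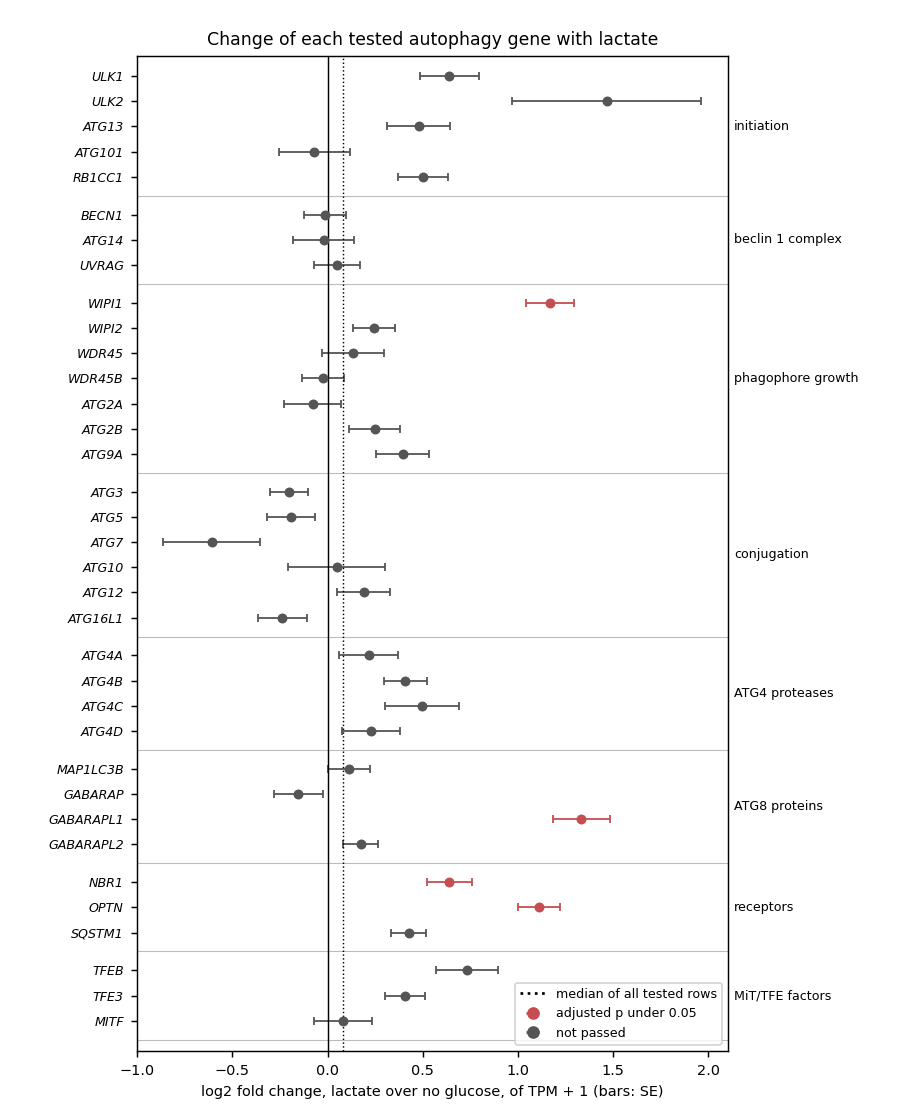
Log2 fold change (lactate over no glucose, of TPM + 1, horizontal axis) of each of the 35 tested genes, ordered by role. Points are limma estimates, bars are SE, red points are the 4 genes that rose and the dotted line is the median of all tested rows at 0.08. The 3 receptors and 4 ATG4 proteases all lie right of 0, the beclin 1 complex lies within 0.05 of 0, and 4 of 6 conjugation genes lie left of it.

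In 19 of the 35 members both lactate libraries were above both no glucose libraries (54.3%, against 37.0% of all tested rows). In 4 members both were below (11.4%, against 21.3%), and in 12 the conditions overlapped. After median-ratio scaling the counts were 15 higher and 7 lower, beside 29.6% and 30.0% of all rows. WIPI2, ATG4A, ATG4D and GABARAPL2 then came to overlap, and ATG14, ATG2A and GABARAP came to be lower in both lactate libraries.

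**Figure D2:**
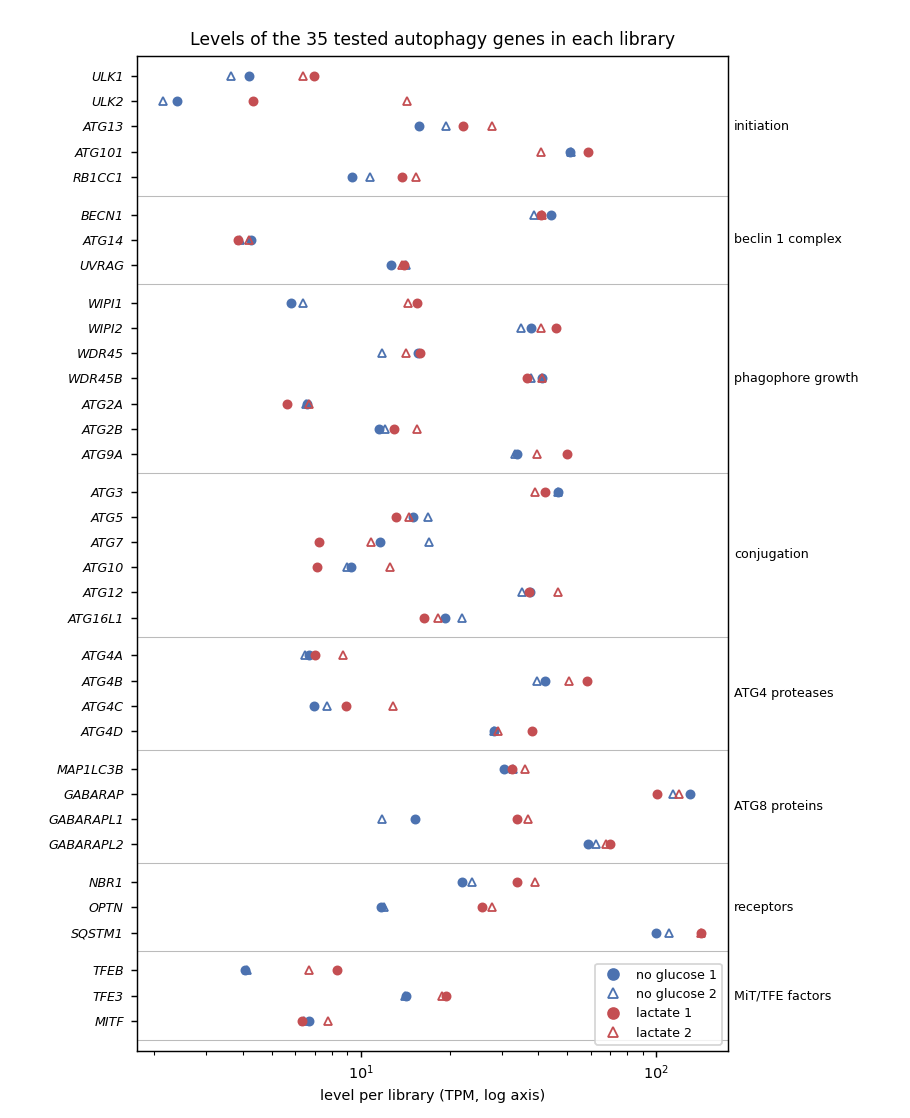
TPM of each tested gene in each of the 4 libraries (log axis), ordered by role, with circles for library 1 and triangles for library 2 of no glucose (blue) and lactate (red). Both red symbols lie right of both blue symbols in 19 genes, left of them in 4 and among them in 12. MAP1LC3A, at 0, is not drawn.

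The sequences just upstream of the 4 genes that rose are shown because these genes moved together, with those of ATG3 and ATG14 because they hold the E-box. Sequences are from RefSeq promoter windows on GRCh38.p14, which span 250 bases before to 50 after a start site. Windows were at hand for 31 of the 36 members, 42 windows in all. The palindrome CACGTG, the core of the E-box bound by MiT/TFE factors, was in the windows of 2 members, ATG3 and ATG14, and in 7.26% of all 35116 windows. With the T that precedes it in the TFEB element, TCACGTG on either strand, it was found in the same 2 members and in 3.71% of all windows. Windows of GABARAPL1, WIPI1, OPTN and NBR1 do not hold CACGTG. In the lines for ATG3 and ATG14 the capitals mark CACGTG.
ATG3 (chr3:112561943-112562002, minus strand, 40 bases before and 20 after the start): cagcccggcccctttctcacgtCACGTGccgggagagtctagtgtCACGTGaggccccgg
ATG14 (chr14:55411831-55411890, minus strand, 60 bases before the start): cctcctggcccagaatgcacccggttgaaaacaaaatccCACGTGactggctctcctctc
The first CACGTG of ATG3 begins 18 bases before the start site, and that of ATG14 begins 21 bases before it. ATG3 was lower in both lactate libraries without passing the test, and ATG14 overlapped between conditions, as given below. No other member with a window holds this motif in it.

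The lines for the 4 genes that rose each hold the 120 bases before the RefSeq start site. Capitals mark TGACGTCA, the full palindrome of the cyclic AMP response element, and GGCGGG on either strand, a core of the GC box bound by SP1. Both of these motifs were chosen after the windows had been seen, and neither overlaps the other or the E-box. OPTN and NBR1 have 2 windows each, of which the upstream one is shown.
GABARAPL1 (chr12:10212757-10212876, plus strand): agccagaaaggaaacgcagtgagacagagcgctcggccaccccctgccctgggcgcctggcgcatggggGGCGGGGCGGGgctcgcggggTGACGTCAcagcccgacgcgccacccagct
WIPI1 (chr17:68457497-68457616, minus strand): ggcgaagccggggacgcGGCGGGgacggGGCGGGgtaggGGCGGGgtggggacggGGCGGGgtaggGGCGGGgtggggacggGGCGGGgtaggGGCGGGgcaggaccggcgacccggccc
OPTN (chr10:13099962-13100081, plus strand): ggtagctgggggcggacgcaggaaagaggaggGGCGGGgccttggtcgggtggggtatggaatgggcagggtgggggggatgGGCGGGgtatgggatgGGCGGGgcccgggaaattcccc
NBR1 (chr17:43170289-43170408, plus strand): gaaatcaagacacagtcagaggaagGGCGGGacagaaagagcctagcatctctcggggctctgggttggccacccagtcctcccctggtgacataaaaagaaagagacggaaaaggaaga
TGACGTCA was found in a window of GABARAPL1 and of MITF among the members, and in 1.85% of all windows. GGCGGG was marked 7 times in the line for WIPI1 and 3 times in that for OPTN. It was marked 2 times in the line for GABARAPL1, where the copies share a base, and 1 time in that for NBR1. It is a common motif, found in 30 of the 42 member windows and in 45% of all windows. A match shows only that these letters are present.

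The initiation complex joins the kinase ULK1 or ULK2 to the scaffold RB1CC1, also called FIP200, and to ATG13 and ATG101. None of its 5 members passed the test, and 4 of the 5 were higher in both lactate libraries, as were 37.0% of all rows. ULK2 had the largest log2 fold change of all tested members and the largest error. It was at 2.39 and 2.15 TPM without lactate and at 4.31 and 14.4 TPM with lactate, a log2 fold change of 1.47 ± 0.50 (limma, adjusted p = 0.134). Its lactate libraries differed from each other by more than the lower of them differed from the no glucose libraries. Without lactate library 2 the log2 fold change was 0.70, and without lactate library 1 it was 2.23. ULK1 was at 4.19 and 3.63 TPM without and at 6.93 and 6.36 TPM with lactate, so that its conditions did not overlap (0.64 ± 0.15, adjusted p = 0.0701, and 0.0351 among protein-coding genes only). The summed level of both kinases was 6.58 and 5.78 TPM without and 11.2 and 20.7 TPM with lactate. ULK2 made up 36.3% and 37.2% of that sum without lactate, and 38.4% and 69.3% with it, so only lactate library 2 had more ULK2 than ULK1.

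RB1CC1, which links the kinase to membranes and receptors, was at 9.34 and 10.7 TPM without and 13.9 and 15.4 TPM with lactate (0.50 ± 0.13, adjusted p = 0.0837). ATG13, a substrate of TORC1 that recruits the kinase, was at 15.8 and 19.4 TPM without and 22.2 and 27.8 TPM with lactate (0.48 ± 0.17, adjusted p = 0.139). Both were higher in each lactate library than in either no glucose library, and neither passed. ATG101, which stabilises ATG13 and had the highest level of the complex, was at 51.3 and 51.5 TPM without and at 58.9 and 40.7 TPM with lactate. The lactate libraries lay on either side of the no glucose libraries (-0.07 ± 0.18, adjusted p = 0.838). A share of 17.1% of 50-base windows of its transcripts occurs in another gene, AC025259.1.

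None of the 3 genes of the beclin 1 complex passed, and the conditions overlapped in all 3. BECN1 encodes beclin 1, the scaffold of the lipid kinase, and had the highest level of its group. It was at 44.0 and 38.6 TPM without and at 40.7 and 41.0 TPM with lactate (-0.01 ± 0.11, adjusted p = 0.953). The lactate libraries lay between the no glucose libraries. ATG14, which directs the kinase to the site where phagophores form, was at 4.26 and 3.92 TPM without and 3.85 and 4.18 TPM with lactate. UVRAG, which replaces ATG14 in a complex for endosomes, was at 12.7 and 14.2 TPM without and 14.0 and 13.8 TPM with lactate. Log2 fold changes of the 3 were between -0.02 and 0.05, and they turned sign when some libraries were left out. BECN1 shares 14.1% of its windows with other genes, mostly CNTD1 and PSME3. PSME3, on the opposite strand, was at 127.0 and 124.3 TPM without and 81.9 and 78.0 TPM with lactate. It fell (log2 fold change -0.65, limma adjusted p = 0.03275). The strand setting is not given, so reads from the shared part cannot be told apart.

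Among 7 genes of phagophore growth, WIPI1 rose and the other 6 did not pass. WIPI1 (NCBI gene 55062, chromosome 17, 68420948 to 68457513, minus strand, GENCODE 29) encodes a β-propeller protein that binds phosphatidylinositol 3-phosphate. It was at 5.80 and 6.40 TPM without lactate and at 15.5 and 14.5 TPM with lactate. Both lactate libraries were above both no glucose libraries, and replicates of each condition were close to each other. The means were 6.10 ± 0.424 and 14.98 ± 0.693 TPM (SD, n = 2), a log2 fold change of 1.17 ± 0.13 (limma, adjusted p = 0.0294). With a library left out the value ranged from 1.11 to 1.23. Of the 50-base windows of its transcripts, 24.4% also occur in other genes, mostly ARSG, whose transcripts lie on the opposite strand. ARSG was at 4.49 to 5.64 TPM in the 4 libraries (log2 fold change -0.03). The strand setting of the counting is not given in the sources used here, so reads from the overlapping part of both genes cannot be told apart.

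The other WIPI proteins are WIPI2, which recruits ATG16L1, and WDR45 and WDR45B, also known as WIPI4 and WIPI3. WIPI2 had the highest mean over the 4 libraries among the phagophore genes, though WDR45B had a higher mean without lactate and ATG9A with it. WIPI2 was at 37.8 and 34.9 TPM without and at 45.7 and 40.8 TPM with lactate (0.24 ± 0.11, adjusted p = 0.2225). WDR45 was at 15.6 and 11.8 TPM without and at 15.9 and 14.2 TPM with lactate. WDR45B was at 41.1 and 37.8 TPM without and at 36.7 and 41.0 TPM with lactate. Of these 3, only WIPI2 had conditions that did not overlap. WIPI1 therefore made up more of the family with lactate, at 5.78% and 7.04% of the summed WIPI level without and 13.6% and 13.1% with it. The share of WDR45B was 41.0% and 41.6% without and 32.3% and 37.1% with lactate. The conditions did not overlap for either share (exact permutation test, two-sided, p = 0.3333, the smallest that 2 against 2 samples allow).

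ATG9A, a lipid scramblase of the vesicles that seed the phagophore, was at 33.9 and 33.3 TPM without and at 50.1 and 39.4 TPM with lactate (0.39 ± 0.14, adjusted p = 0.146). Both lactate libraries were higher, but they differed from each other by more than the lower of them differed from the no glucose libraries. Of the windows of ATG9A, 33.6% also occur in an overlapping gene model, AC068946.2. The lipid transfer proteins ATG2A and ATG2B differed in direction. ATG2A was at 6.56 and 6.53 TPM without and 5.62 and 6.71 TPM with lactate, which overlap. ATG2B was at 11.6 and 12.1 TPM without and 13.0 and 15.6 TPM with lactate, which do not (0.25 ± 0.13, adjusted p = 0.291).

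The 6 conjugation genes encode proteins of the reactions that attach ATG12 to ATG5 and ATG8 proteins to lipid. None passed the test. They had the lowest median of the 8 role groups, -0.20, and 4 of the 6 were lower in both lactate libraries, where 21.3% of all rows were. These 4 were ATG7, ATG16L1, ATG3 and ATG5. ATG7, the activating enzyme of both reactions, was at 11.6 and 17.1 TPM without and at 7.25 and 10.9 TPM with lactate. The highest lactate library lay just under the lowest no glucose library, and libraries of each condition were far apart (-0.61 ± 0.25, adjusted p = 0.194). With a library left out the value ranged from -0.87 to -0.35. Of the windows of ATG7, 16.4% also occur in VGLL4, which lies on the opposite strand. VGLL4 was at 14.7 to 17.8 TPM in the 4 libraries (log2 fold change 0.15). ATG16L1, the scaffold that places the conjugation complex on the membrane, was at 19.2 and 22.0 TPM without and 16.4 and 18.3 TPM with lactate (-0.24 ± 0.13, adjusted p = 0.287).

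ATG3, the conjugating enzyme for ATG8 proteins, had the highest mean over the 4 libraries in the group, though ATG12 had a higher mean with lactate. ATG3 was at 46.6 and 46.7 TPM without and at 42.1 and 38.9 TPM with lactate (-0.20 ± 0.10, adjusted p = 0.249). Its no glucose libraries were nearly equal, and both lactate libraries were under them. ATG5, the acceptor of ATG12, was at 15.1 and 16.9 TPM without and 13.2 and 14.5 TPM with lactate (-0.19 ± 0.12). ATG12, the ubiquitin-like modifier, was at 37.6 and 35.1 TPM without and 37.1 and 46.5 TPM with lactate, and overlapped. ATG10, the conjugating enzyme for ATG12, was at 9.31 and 9.01 TPM without and 7.13 and 12.6 TPM with lactate. Its lactate libraries lay on either side of the no glucose libraries, and its log2 fold change of 0.05 became -0.04 after median-ratio scaling. ATG10 overlaps RPS23 on the opposite strand, which was at 6611 to 7229 TPM, and 7.49% of its windows also occur in other genes. The conjugation group kept 4 members lower and none higher after median-ratio scaling, where 30.0% of all rows were lower.

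The 4 ATG4 proteases trim ATG8 proteins before conjugation and release them from lipid afterwards. All 4 were higher in both lactate libraries, where 37.0% of all rows were, and none passed. ATG4B, the most active of them on LC3 proteins, also had the highest level. It was at 42.1 and 39.5 TPM without and at 58.5 and 50.7 TPM with lactate (0.41 ± 0.11, adjusted p = 0.0926). ATG4D was at 28.3 and 28.2 TPM without and 38.2 and 29.1 TPM with lactate, ATG4C at 6.95 and 7.69 TPM without and 8.91 and 12.8 TPM with it, and ATG4A at 6.70 and 6.50 TPM without and 7.0 and 8.75 TPM with it. In each of these 3, one lactate library was much nearer to the no glucose libraries than the other, lactate library 2 for ATG4D and lactate library 1 for ATG4C and ATG4A. After median-ratio scaling ATG4A and ATG4D overlapped between conditions, which left 2 of the 4 higher beside 29.6% of all rows. The family summed to 84.0 and 81.9 TPM without and to 112.5 and 101.4 TPM with lactate, and ATG4B made up 49.2% ± 1.32 of it without and 51.0% ± 1.37 with lactate (SD, n = 2).

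The ATG8 proteins are the ubiquitin-like proteins that mark autophagosomes, and they fall into the LC3 and GABARAP subfamilies. GABARAPL1 (NCBI gene 23710, chromosome 12, 10212458 to 10223130, plus strand, GENCODE 29) rose, and the other 3 tested members did not pass. It was at 15.2 and 11.8 TPM without lactate and at 33.8 and 36.9 TPM with lactate. Both lactate libraries were above both no glucose libraries by more than the replicates differed. The means were 13.5 ± 2.43 and 35.3 ± 2.17 TPM (SD, n = 2), a log2 fold change of 1.33 ± 0.15 (limma, adjusted p = 0.0308). With a library left out it ranged from 1.16, without no glucose library 2, to 1.51, without no glucose library 1. Windows shared with other genes, among them its processed copy GABARAPL3, made up 6.85% of its transcripts.

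GABARAP, the founding member of its subfamily, had the highest level of the family. It was at 130.6 and 113.7 TPM without and at 100.6 and 119.1 TPM with lactate, which overlap (-0.15 ± 0.13, adjusted p = 0.473). GABARAPL2, also known as GATE-16, was at 58.7 and 62.7 TPM without and 69.6 and 67.5 TPM with lactate (0.17 ± 0.09, adjusted p = 0.288). MAP1LC3B encodes LC3B, the usual marker protein of autophagosomes, and was at 30.6 and 32.8 TPM without and 32.5 and 36.1 TPM with lactate (0.11 ± 0.11, adjusted p = 0.547). Its conditions overlapped. Of the other LC3 genes, MAP1LC3A was listed at 0 in every library, and MAP1LC3B2 and MAP1LC3C, which are not among the 36, stayed under the filter. The LC3 subfamily was thus represented by MAP1LC3B alone at levels above the filter. Of the windows of GABARAP, 48.9% also occur in other gene models, mostly AC120057.2.

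The summed ATG8 level was 235.1 and 220.9 TPM without and 236.5 and 259.6 TPM with lactate. Both lactate sums were higher, by 20.03 TPM on average, which was less than the difference between the 2 lactate libraries. After median-ratio scaling the conditions overlapped, at 246.1 and 225.2 without and 233.5 and 244.7 with lactate, and the means differed by 3.44. The makeup of the sum differed. GABARAPL1 was 6.47% and 5.33% of it without and 14.3% and 14.2% with lactate, while GABARAP was 55.5% and 51.5% without and 42.5% and 45.9% with lactate. Neither share overlapped between conditions (exact permutation test, two-sided, p = 0.3333, the smallest possible). GABARAPL2 made up 26.7% ± 2.40 without and 27.7% ± 2.42 with lactate, and MAP1LC3B 13.9% ± 1.29 and 13.8% ± 0.112 (SD, n = 2), and these overlapped.

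**Figure D3:**
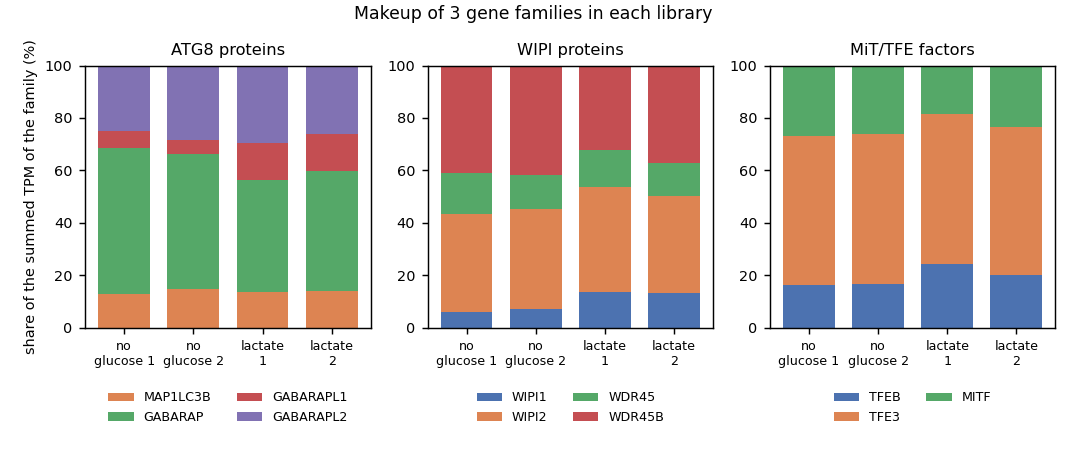
Share of each gene in the summed TPM of its family (vertical axis, %) in each of the 4 libraries, for the ATG8 proteins, the WIPI proteins and the MiT/TFE factors. GABARAPL1 fills 5.33% to 6.47% of the ATG8 bars without and 14.2% to 14.3% with lactate, and WIPI1 fills 5.78% to 7.04% of the WIPI bars without and 13.1% to 13.6% with lactate.

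The cargo receptors bind ubiquitin-tagged cargo and, through a short motif, ATG8 proteins. All 3 receptors among the 36 were higher in both lactate libraries, where 37.0% of all rows were, and 2 of them rose, where 4.69% of all rows did. OPTN (NCBI gene 10133, chromosome 10, 13099449 to 13138308, plus strand, GENCODE 29) encodes optineurin, a receptor for damaged mitochondria and intracellular bacteria. It was at 11.8 and 12.0 TPM without lactate and at 25.8 and 27.9 TPM with lactate. Its replicates were close in both conditions. The means were 11.9 ± 0.163 and 26.8 ± 1.51 TPM (SD, n = 2), a log2 fold change of 1.11 ± 0.11 (limma, adjusted p = 0.0253), the smallest adjusted p among the 36. With a library left out it ranged from 1.06 to 1.17. Only 2.16% of its windows occur in other genes.

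NBR1 (NCBI gene 4077, chromosome 17, 43170481 to 43211689, plus strand, GENCODE 29) encodes a receptor for protein aggregates and peroxisomes. It was at 22.1 and 23.8 TPM without lactate and at 33.9 and 39.0 TPM with lactate. The conditions did not overlap, and the gap between them was larger than the difference within either. The log2 fold change was 0.64 ± 0.12 (limma, adjusted p = 0.0469). This call ended after median-ratio scaling (0.54, adjusted p = 0.0544). Of the windows of NBR1, 6.16% also occur in other genes. SQSTM1 encodes p62, the receptor that gathers ubiquitinated proteins into condensates, and had the highest mean over the 4 libraries of all 36 genes, though GABARAP was higher in both no glucose libraries. SQSTM1 was at 100.3 and 110.9 TPM without and at 142.1 and 141.9 TPM with lactate, so that both lactate libraries were about level and above both no glucose libraries. Its log2 fold change of 0.43 ± 0.09 did not pass (adjusted p = 0.0603), and passed with a filter of 5 TPM (0.0463) or among protein-coding genes only (0.0298). SQSTM1 shares 20.3% of its windows with other genes, mostly MRNIP.

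Receptors outside the 36 were also counted. Of 15 receptors in all, 14 were tested, 4 rose, none fell and 10 did not pass, where 4.69% of all rows rose, and the median log2 fold change was 0.46. Both lactate libraries were higher in 9 of the 14 and lower in 1, TEX264, beside 37.0% and 21.3% of all rows. CALCOCO1, a receptor for the endoplasmic reticulum and Golgi, was at 13.3 and 11.3 TPM without and 23.1 and 20.5 TPM with lactate (0.78 ± 0.13, limma adjusted p = 0.0418). BNIP3L, also called NIX, is a receptor on the outer mitochondrial membrane. It was at 12.9 and 13.0 TPM without and 19.3 and 21.2 TPM with lactate (0.61 ± 0.11, adjusted p = 0.0471). Both of these calls ended after median-ratio scaling (adjusted p = 0.0633 and 0.0588) and, like those above, with any library left out or without a filter on low values. CALCOCO2, also called NDP52, and CCPG1, a receptor for the endoplasmic reticulum, missed the threshold with log2 fold changes of 0.50 (adjusted p = 0.0512) and 0.90 (0.0549). RETREG1, another receptor for the endoplasmic reticulum, was at 1.25 and 0.87 TPM without and 2.82 and 2.14 TPM with lactate. TAX1BP1, WDFY3, NCOA4, TOLLIP, TEX264 and FUNDC1 had log2 fold changes between -0.18 and 0.32.

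**Figure D4:**
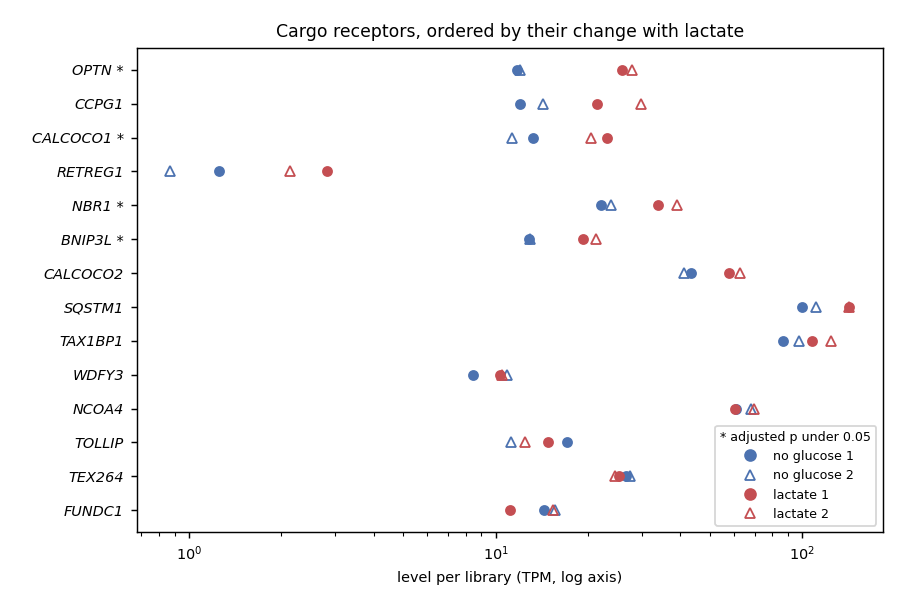
TPM of 14 tested cargo receptors in each of the 4 libraries (log axis), ordered by log2 fold change from the top, with asterisks on the 4 that rose. In 9 of the 14 both lactate libraries (red) lie right of both no glucose libraries (blue), and in TEX264 both lie left.

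The MiT/TFE factors did not pass the test. TFEB was at 4.07 and 4.13 TPM without lactate and at 8.34 and 6.69 TPM with lactate. Its no glucose libraries were nearly equal and both lactate libraries were above them (0.73 ± 0.16, limma adjusted p = 0.0607). It passed among protein-coding genes only (adjusted p = 0.0259), and over all alternatives its adjusted p ranged from 0.0259 to 0.2993. TFE3, the most abundant of the 3, was at 14.2 and 14.2 TPM without and at 19.5 and 18.8 TPM with lactate (0.41 ± 0.11, adjusted p = 0.0825). MITF, best known from melanocytes, was at 6.69 and 6.45 TPM without and 6.31 and 7.75 TPM with lactate, which overlap (0.08 ± 0.15, adjusted p = 0.770), and its log2 fold change became -0.0073 after median-ratio scaling. The 3 factors summed to 25.0 and 24.8 TPM without and to 34.2 and 33.3 TPM with lactate. TFE3 made up 57.1% ± 0.219 of the sum without and 56.9% ± 0.374 with lactate (SD, n = 2). The share of TFEB was 16.3% and 16.7% without and 24.4% and 20.1% with lactate, and that of MITF was 26.8% and 26.1% without and 18.5% and 23.3% with lactate. The conditions did not overlap for these 2 shares (exact permutation test, two-sided, p = 0.3333).

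Beyond the 36, a list of 50 further genes of the pathway was read from the same fit. Of 45 tested, 3 rose (6.67%, against 4.69% of all rows), none fell and 42 did not pass, with a median log2 fold change of 0.07. The third call beside the receptors CALCOCO1 and BNIP3L was ATG16L2, a relative of ATG16L1. It was at 5.87 and 5.23 TPM without and at 11.2 and 12.0 TPM with lactate (0.94 ± 0.13, limma adjusted p = 0.0340), while ATG16L1 was lower in both lactate libraries. This call ended with any library left out (adjusted p between 0.1152 and 0.2734) and without a filter on low values (0.1193). In the other lists none passed among 5 tested lipid kinase subunits, 2 further initiation kinases, 3 further phagophore genes and 7 genes of autophagosome fusion. Among the 15 tested genes of TORC1 and of TFEB control, none passed, 6 had a log2 fold change above 0 and 9 below, and the median was -0.08. The Rag GTPase RRAGC and the Ragulator anchor LAMTOR1, parts of the lysosomal platform for TORC1, had log2 fold changes of -0.51 (adjusted p = 0.0696) and -0.38 (0.0873). RRAGC was at 20.5 and 21.6 TPM without and 13.5 and 15.5 TPM with lactate, and LAMTOR1 was at 66.3 and 59.6 TPM without and 48.9 and 47.7 TPM with lactate. RRAGD, a paralog of RRAGC, was at 8.42 and 9.94 TPM without and 9.75 and 13.6 TPM with lactate, which overlap. Of the same platform, RRAGA, LAMTOR2 and LAMTOR4 were higher in both lactate libraries without passing, with log2 fold changes of 0.26, 0.18 and 0.15. Among the 15 tested genes, both lactate libraries were higher in 4 and lower in 5, beside 37.0% and 21.3% of all rows. The platform genes named here were chosen after their values were seen.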

How the data were processed

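RNA from 4 HGC27 samples was sequenced, and the authors deposited a table with a TPM value per gene and library. The submitters' processing notes name RSEM 1.3.3 and hg38. For the aligner, annotation and strand setting, the sources used here give nothing. TPM keeps no depth, so no counting interval was computed and no count model was fitted, and the form of the design for normalized values was used. All 4 columns were mapped to samples by their labels, and 0 columns were left unused.

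TPM was transformed as log2(TPM + 1), rows under a mean of 1 TPM were dropped, and lactate was compared with no glucose in limma 3.58.1 (R 4.3.3) with a mean-dependent variance prior. Tests were two-sided, with Benjamini-Hochberg adjustment over the 15051 rows and a threshold of 0.05. Sums and shares of families were compared with exact permutation tests over samples. The procedure was tested on data simulated with independent noise, with variances drawn from the prior fitted here. That simulation held no effect shared across the rows of a library, so it cannot show how the calls fare under such an effect. Alternatives were a filter at 5 TPM or none, a pseudocount of 0.1, leaving out each library, a replicate block, median-ratio scaling, protein-coding genes only and stricter thresholds.

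The members and gene lists were chosen with earlier results of these data known. Values per library are given for each member called, the most abundant member of each role group, the ATG8 proteins, the MiT/TFE factors, and the 3 largest rises and falls, and other members were added to these. Of other pathway genes, up to 6 called genes are named. Positions are from GENCODE 29 on GRCh38, the assembly of hg38. Transcript windows of 50 bases were searched in all other genes of that annotation.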

Additional observations from a re-analysis of the deposited data

How the results depend on the processing

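With 2 libraries per condition, calls near the threshold depend on which rows are tested and on every library. The depth behind each TPM value is unknown, so counting error could not be separated from other spread. The main comparison called 992 rows and 4 members. Of all rows, 4249 had an unadjusted p under 0.05, and without a filter on low values 5072 did, of which 0 were called (0 higher, 0 lower, 0 members). That setting tested 30146 rows. Leaving out a library, which leaves fewer samples by construction, gave 0 to 10 called rows (0 to 8 higher, 0 to 7 lower) and 0 called members. An adjusted p under 0.01 left 1 row, 0 higher and 1 lower, and 0 members. A log2 fold change of at least 1 left 310 rows, 261 higher and 49 lower. A filter at 5 TPM gave 442 rows lower. Median-ratio scaling gave 389 rows higher. Protein-coding genes only, which tests fewer rows and fits the variance prior again on them, gave 2074 rows, 1504 higher and 570 lower, and 7 members. No member was called lower in any setting.

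The replicate block called 1207 rows and the same 4 members, and changed no other call among the 35 tested members, ATG16L2, CALCOCO1 and BNIP3L. Same-numbered samples share only a number. Over all tested rows, the difference between the no glucose libraries correlated at 0.035 with that between the lactate libraries, taken in the same order.

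Directions that turned were those of genes near 0. Under median-ratio scaling the log2 fold changes of UVRAG, ATG10 and MITF were -0.0430, -0.0432 and -0.0073. Leaving out a library in turn gave -0.33 to 0.19 for ATG101, -0.105 to 0.0789 for BECN1, -0.0696 to 0.0268 for ATG14, -0.0288 to 0.127 for UVRAG, -0.0520 to 0.321 for WDR45, -0.101 to 0.0552 for WDR45B, -0.189 to 0.0312 for ATG2A, -0.32 to 0.42 for ATG10 and -0.0502 to 0.209 for MITF. The difference in share of family then ranged, in percentage points, from -1.001 to 0.8238 for MAP1LC3B, -0.6704 to 2.747 for GABARAPL2, -1.733 to 0.6753 for ATG4A, -0.911 to 3.834 for ATG4C, -1.081 to 2.161 for WIPI2 and -2.154 to 0.3958 for WDR45. The cause was not tested. The read-count alternative was not run because the values are TPM.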
